A study of Mus musculus with 48 samples.

Results

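The blood-brain barrier genes examined here were 9 of the 54532 genes with deposited expression values, chosen by gene name. They were 3 tight junction genes (Cldn5, Ocln and Tjp1), 4 carriers (Slc2a1, Mfsd2a, Slco1c1 and Slco1a4) and 2 efflux pumps (Abcb1a and Abcg2). All 9 were found in the table, and all 9 passed the filter on low values in each region. Male wild-type C57Bl6 mice gave RNA from 2 brain regions, hippocampus and hemisphere. Each region had 4 groups of 6 libraries. Mice given both drugs received angiotensin II (AngII, a peptide that raises blood pressure) at 0.7 mg/kg per day for 2 weeks from an implanted osmotic minipump, together with hydralazine (a vasodilator that lowers blood pressure) at 50 mg/kg in the drinking water. Mice of the other groups received AngII alone, saline with hydralazine (vehicle plus hydralazine), or saline alone (vehicle). The labels call both AngII groups hypertensive, also with hydralazine. The model is a short infusion in 1 sex and 1 strain, and blood pressure was not analysed here. The labels do not say that the libraries of a group came from separate mice, so a p-value measures the spread between these libraries, part of which may be technical.

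The blood-brain barrier is formed by the endothelial cells of brain capillaries, with pericytes and astrocyte endfeet around them. Tight junctions close the gaps between these cells, so that nutrients enter through carriers and many drugs are returned to the blood by pumps of the ABC family. In mice, loss of claudin-5 opens the barrier to small molecules, and loss of Mfsd2a raises vesicle transport across the endothelium. Several of these genes are also active outside the endothelium: Slc2a1 in glia, Slco1c1 in astrocytes, and junction genes in the epithelium of the choroid plexus.

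Promoter windows are shown for 4 genes that the results below turn on: the most abundant junction gene and the most abundant carrier, and the 2 carriers with the lowest unadjusted p-values among the drug comparisons. The sequences are RefSeq's for GRCm38.p6, run 5′ to 3′ on the strand of the gene, and cover 250 bases before to 50 bases after the RefSeq start site. Capitals mark matches on either strand to the GC box (GGGCGG), the hypoxia response element core (ACGTG), the TCF/LEF core of Wnt signalling (CTTTGA) and the SOX core (ACAATG). The ETS core (CCGGAA) and the forkhead core (GTAAACA) were searched as well. A match describes the letters and is not a measured site.
Cldn5, chr16:18776597-18776896, plus strand: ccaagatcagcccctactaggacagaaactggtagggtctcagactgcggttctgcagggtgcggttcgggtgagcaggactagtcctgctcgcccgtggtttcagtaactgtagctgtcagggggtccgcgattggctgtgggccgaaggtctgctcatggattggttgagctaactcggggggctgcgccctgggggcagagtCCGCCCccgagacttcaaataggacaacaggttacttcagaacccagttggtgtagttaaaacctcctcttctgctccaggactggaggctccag
Slc2a1, chr4:119108495-119108794, plus strand: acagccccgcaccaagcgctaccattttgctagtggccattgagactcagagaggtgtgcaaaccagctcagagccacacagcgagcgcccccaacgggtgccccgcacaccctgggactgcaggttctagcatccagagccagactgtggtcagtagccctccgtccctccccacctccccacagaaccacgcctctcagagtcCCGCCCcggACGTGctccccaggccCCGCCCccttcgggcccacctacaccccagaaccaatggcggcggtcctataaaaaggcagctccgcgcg
Mfsd2a, chr4:122961139-122961438, minus strand: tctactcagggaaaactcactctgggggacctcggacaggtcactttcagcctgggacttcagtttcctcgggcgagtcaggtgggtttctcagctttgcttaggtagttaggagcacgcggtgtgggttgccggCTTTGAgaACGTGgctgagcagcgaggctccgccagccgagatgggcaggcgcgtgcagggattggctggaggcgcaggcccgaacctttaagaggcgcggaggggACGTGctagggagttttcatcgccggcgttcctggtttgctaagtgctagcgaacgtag
Slco1a4, chr6:141856171-141856470, minus strand: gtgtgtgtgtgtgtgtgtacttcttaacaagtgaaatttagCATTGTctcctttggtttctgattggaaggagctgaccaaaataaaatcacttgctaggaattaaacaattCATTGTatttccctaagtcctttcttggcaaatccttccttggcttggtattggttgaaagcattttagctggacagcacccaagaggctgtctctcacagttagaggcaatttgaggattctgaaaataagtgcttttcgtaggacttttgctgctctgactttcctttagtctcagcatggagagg
The Cldn5 window held 1 GC box, and the Slc2a1 window held 2 GC boxes and 1 hypoxia response element core. The Mfsd2a window held 1 TCF/LEF core and 2 hypoxia response element cores, and the Slco1a4 window held 2 SOX cores. Among all 32851 mouse windows of this length, 35.7% held the GC box, 19.6% the hypoxia response element core, 16.0% the TCF/LEF core and 12.6% the SOX core. The shares for the ETS and forkhead cores were 14.9% and 3.65%, and none of the 4 windows printed here held either. Base composition differed among them, with 58.3% G or C in Cldn5, 65.3% in Slc2a1, 60.3% in Mfsd2a and 40.7% in Slco1a4.

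Hemisphere libraries held 15.77 to 23.5 megareads (M) in genes (median 18.97 M), and hippocampal libraries 1.21 to 21.0 M (median 17.96 M). Of the hippocampal libraries, 6 listed only 7805 to 15684 genes above 0, while the other 18 listed 18914 to 23044 and the hemisphere libraries 23161 to 25610. These 6 were AngII plus hydralazine replicate 5, AngII replicate 3, vehicle plus hydralazine replicates 3 and 4, and vehicle replicates 3 and 4. AngII replicate 6 stood apart in both regions, as described below. Many results that rest on these libraries are given with and without them. The region labels matched their neuronal markers: C1ql2 averaged 111 ± 28.4 FPKM in hippocampus and 7.84 ± 1.49 FPKM in hemisphere, and Spink8 averaged 77.2 ± 17.1 FPKM in hippocampus and 2.95 ± 0.706 FPKM in hemisphere (SD, n = 24 each). Endothelial transcripts were present in bulk tissue, at levels that differed between genes. Pecam1, counted below among the junction genes, was low. It averaged 2.5 ± 1.03 FPKM in hippocampus, where at least 1 library was at 0, and 3.95 ± 0.477 FPKM in hemisphere. The 19 listed endothelial markers summed to a median of 597 FPKM in hippocampus and 466 FPKM in hemisphere. A sum follows its most abundant members. The mean log2(FPKM + 0.5) of the same markers was lower in hippocampus (median 2.5) than in hemisphere (median 2.6). Single markers were higher or lower in hippocampus, as given below.

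Levels are given as FPKM, the fragments per kilobase of gene and per megaread, so the order of genes rests on the deposited gene lengths. Abcg2, at 8153 bases, had more hemisphere reads than Ocln, at 4222 bases (medians 313.0 and 187.0), but a lower FPKM. In hemisphere, the order of the medians over 24 libraries was Cldn5 (43.5 FPKM), Slc2a1 (30.2), Slco1c1 (10.4), Mfsd2a (8.90), Tjp1 (8.43), Slco1a4 (7.15), Abcb1a (4.38), Ocln (2.28) and Abcg2 (1.90). Neighbours in this order mostly overlapped. Mfsd2a exceeded Tjp1 in only 16 of 24 libraries, Slco1c1 exceeded Mfsd2a in 19 of 24 and Ocln exceeded Abcg2 in 19 of 24. The ranges did not overlap between Slc2a1 and Slco1c1 or between Abcb1a and Ocln. The median number of reads behind a hemisphere value was highest for Slc2a1 (2190.5) and lowest for Ocln (187.0), so counting error weighs most on Ocln.

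**Figure D1:**
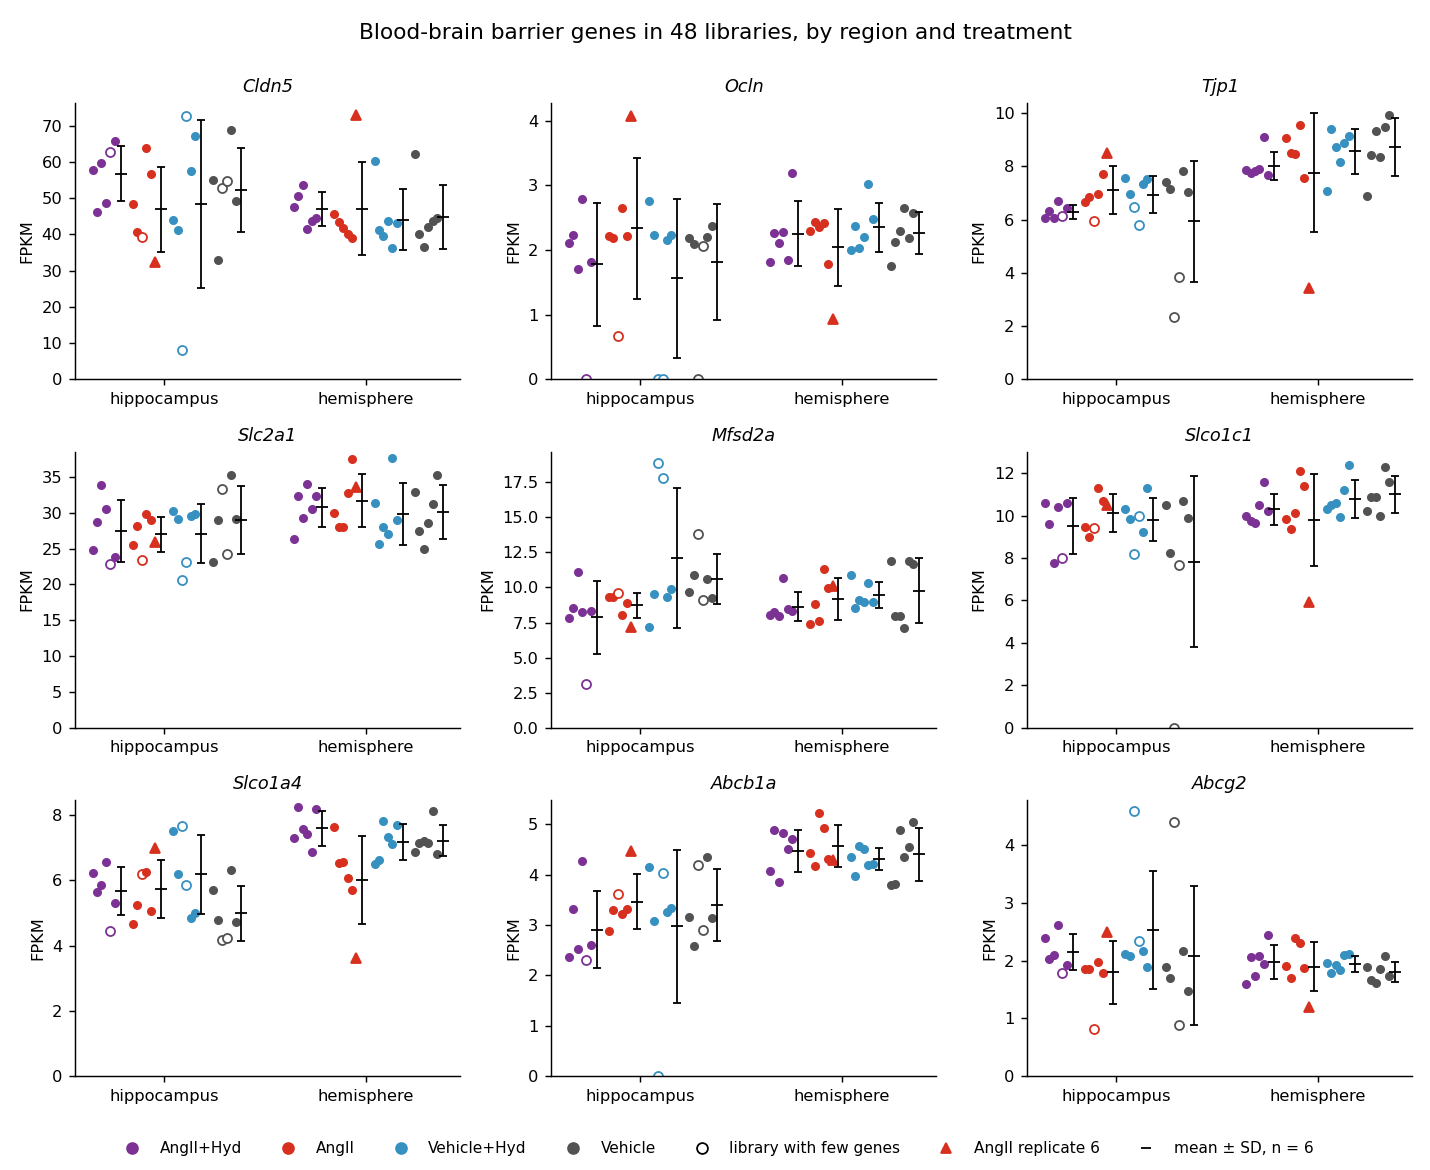
FPKM of the 9 barrier genes (1 panel each, linear axis from 0) in every library, with hippocampus on the left and hemisphere on the right of each panel and the treatments in colour. Points are libraries, open circles are the 6 hippocampal libraries with few genes, triangles are AngII replicate 6, and bars are the mean ± SD of 6 libraries; treatments overlap within each region for every gene, and the hippocampal zeros of Ocln, Abcb1a and Slco1c1 all lie in open circles.

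Hemisphere, AngII against vehicle. The comparison asks whether AngII infusion changed the barrier's transcripts in the hemisphere, and it does not isolate blood pressure. None of the 9 genes passed the test. In bulk tissue fewer cells of a type and less RNA per cell cannot be told apart, and this holds for all results below. No gene of the 9 was called by limma at a Benjamini-Hochberg adjusted p under 0.05, against 0.0717% of the 16747 genes tested (12 genes). At an unadjusted p under 0.05 there was 1 of the 9 and 1548 of all genes. Fold changes of the 9 ran from -0.27 to 0.07 on the log2(FPKM + 0.5) scale, with a median of -0.07 beside -0.00 for all genes, and their 95% intervals lay between -0.53 and 0.34.

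All gene coordinates are on GRCm38. Cldn5 (ENSMUSG00000041378, chr16:18776847-18778262), the main claudin of brain endothelium, had 39.1, 42.5 and 73.0 FPKM (lowest, median, highest) in AngII hemispheres, against 36.5, 42.9 and 62.1 FPKM in vehicle hemispheres. The groups overlapped, and the log2 fold change was 0.06 ± 0.14 (SE; adjusted p = 0.891, limma). The 73.0 FPKM came from AngII replicate 6, without which the sign turned (-0.08 ± 0.11). Ocln (ENSMUSG00000021638, chr13:100496507-100552718), which encodes the junction protein occludin, had 0.930, 2.32 and 2.44 FPKM in AngII hemispheres, against 1.76, 2.24 and 2.65 FPKM in vehicle hemispheres. Tjp1 (ENSMUSG00000030516, chr7:65296165-65527781), whose product ZO-1 ties the junctions to actin, had 3.43, 8.48 and 9.56 FPKM in AngII hemispheres, against 6.90, 8.86 and 9.91 FPKM in vehicle hemispheres. In both genes the lowest AngII value was replicate 6 and the other 5 lay within the vehicle range. Their log2 fold changes were -0.16 ± 0.15 for Ocln and -0.21 ± 0.15 for Tjp1, and -0.00 ± 0.11 and -0.01 ± 0.08 without replicate 6.

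Among the carriers, Slc2a1 (ENSMUSG00000028645, chr4:119108711-119137983), the glucose carrier GLUT1, had 28.0, 31.4 and 37.5 FPKM in AngII hemispheres, against 24.9, 29.9 and 35.3 FPKM in vehicle hemispheres. Its log2 fold change was 0.07 ± 0.09. Slc2a1 exons overlap those of an antisense gene at 0.802 FPKM, whose reads cannot be told apart without a strand setting. Mfsd2a (ENSMUSG00000028655, chr4:122946850-122961188), which carries lysophospholipids with omega-3 fatty acids, had 7.38, 9.38 and 11.3 FPKM in AngII hemispheres, against 7.13, 9.85 and 11.9 FPKM in vehicle hemispheres. Slco1c1 (ENSMUSG00000030235, chr6:141524368-141570177), a carrier of thyroxine, had 5.93, 10.0 and 12.1 FPKM in AngII hemispheres, against 10.0, 10.9 and 12.3 FPKM in vehicle hemispheres. The log2 fold changes were -0.07 ± 0.12 for Mfsd2a and -0.19 ± 0.11 for Slco1c1, whose lowest AngII value was again replicate 6. Without that library Slco1c1 was at -0.06 ± 0.07.

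Slco1a4 (ENSMUSG00000030237, chr6:141805440-141856199), an organic anion carrier of the luminal and abluminal endothelial membranes, had the lowest p of the 9. Its values were 3.61, 6.30 and 7.64 FPKM in AngII hemispheres, against 6.80, 7.15 and 8.12 FPKM in vehicle hemispheres. Of the 6 AngII libraries, 5 lay below the vehicle mean, and the groups overlapped. The log2 fold change was -0.27 ± 0.10 (unadjusted p = 0.0156, adjusted p = 0.490, limma). Without AngII replicate 6 it was -0.15 ± 0.07 (adjusted p = 0.641). The reads of Slco1a4 may be shared with close relatives in its gene cluster, depending on how the authors counted.

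The pumps differed by little between AngII and vehicle hemispheres. Abcb1a (ENSMUSG00000040584, chr5:8660077-8748575), a P-glycoprotein gene, had 4.17, 4.36 and 5.22 FPKM in AngII hemispheres, against 3.80, 4.44 and 5.04 FPKM in vehicle hemispheres, with a log2 fold change of 0.05 ± 0.07. Abcg2 (ENSMUSG00000029802, chr6:58584523-58695676), the breast cancer resistance protein gene, had 1.20, 1.89 and 2.40 FPKM in AngII hemispheres, against 1.62, 1.80 and 2.09 FPKM in vehicle hemispheres, with a log2 fold change of 0.03 ± 0.10. The interval of Abcb1a, -0.10 to 0.20, was the narrowest of the 9. Abcb1a has a near copy, Abcb1b, so its reads may be split between them.

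Hemisphere, hydralazine. Adding hydralazine to AngII called none of the 9 genes by limma, against 0.0% of 16747 genes, and 1 of the 9 and 760 of all genes had an unadjusted p under 0.05. The gene was Slco1a4, which had 6.86, 7.50 and 8.23 FPKM in hemispheres given both drugs, against 3.61, 6.30 and 7.64 FPKM in AngII hemispheres. All 6 libraries with both drugs lay above the AngII mean, though the groups overlapped. The log2 fold change was 0.34 ± 0.10 (unadjusted p = 0.00331, adjusted p = 0.851), and without AngII replicate 6 it was 0.21 ± 0.07. Against vehicle, hemispheres given both drugs differed in Slco1a4 by 0.07 ± 0.10. The comparison with vehicle and the comparison with both drugs share the AngII libraries, so their values are not independent. The other 8 genes ran from -0.08 (Mfsd2a) to 0.14 (Ocln). Without AngII replicate 6 Ocln was at -0.01, Tjp1 turned to -0.10 from 0.10, Slco1c1 to -0.04 from 0.09, Abcg2 to -0.03 from 0.06, and Cldn5 was at 0.16.

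The remaining hemisphere comparisons also called none of the 9, each against 0.0% of all genes: both drugs against vehicle, hydralazine alone against vehicle, both drugs against hydralazine alone, and the interaction of the drugs. The AngII effect averaged over mice with and without hydralazine called none of the 9 against 0.0299% of all genes (5 genes). Among these comparisons, only the interaction held a barrier gene with an unadjusted limma p under 0.05, Slco1a4, at 0.35 ± 0.15 (limma adjusted p = 1.0), and at 0.22 ± 0.09 without AngII replicate 6. Hydralazine alone gave log2 fold changes between -0.03 and 0.09 against vehicle, with intervals between -0.34 and 0.35. Both drugs against vehicle gave -0.15 to 0.10.

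**Figure D2:**
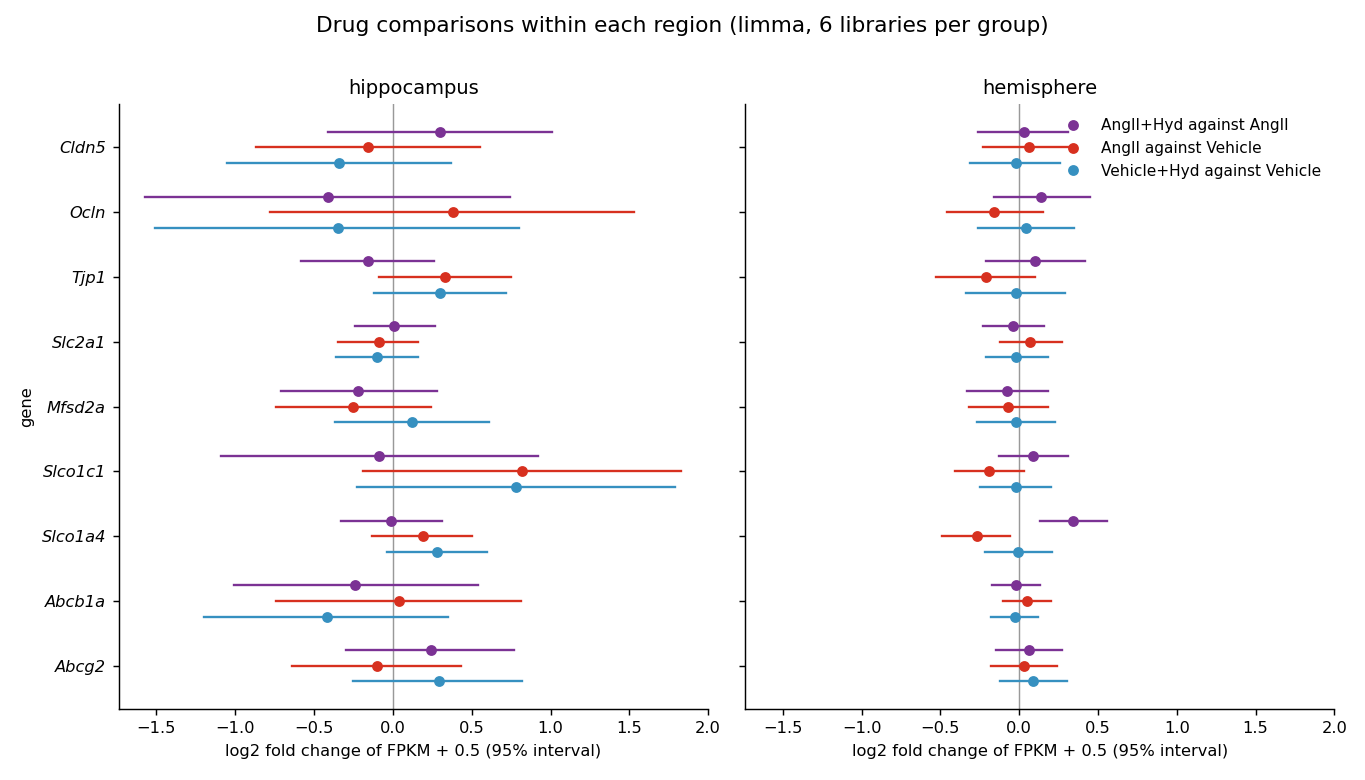
Log2 fold changes of FPKM + 0.5 with 95% intervals (x axis) for the 9 genes (y axis) in 3 drug comparisons, hippocampus on the left and hemisphere on the right, 6 libraries per group. Hemisphere values lie between -0.27 and 0.34 with short intervals, those of Slco1a4 on opposite sides of 0, and hippocampal intervals are longer, reaching from -1.57 to 1.83.

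The other genes of the barrier gave no calls in the hemisphere either. For AngII against vehicle these were 0 of 16 tested junction genes (18 listed), 0 of 20 carriers and pumps (22 listed), 0 of 23 regulators of barrier formation, 0 of 12 genes of leakage and vesicle transport (15 listed) and 0 of 19 endothelial markers. Their median log2 fold changes were -0.01 for junctions, 0.01 for carriers, -0.08 for regulators, 0.01 for leakage genes and 0.04 for endothelial markers. The median of all genes was -0.00. All list values of this comparison include AngII replicate 6 and were not computed without it. The regulators, mostly of the Wnt pathway that induces the barrier, were below 0 in 16 of 23, with Foxf2, a pericyte transcription factor, at -0.35 ± 0.10 (adjusted p = 0.304) and Lef1, a Wnt effector, at -0.29 ± 0.11 (adjusted p = 0.490). The endothelial surface genes Ly6a and Ly6c1 had 0.52 ± 0.13 (adjusted p = 0.203) and 0.37 ± 0.10 (adjusted p = 0.302). All 11 tested markers of choroid plexus epithelium, a source of junction transcripts, were below 0, with a median of -0.24 and none called; their summed level was 362 to 703 FPKM in AngII hemispheres and 486 to 849 FPKM in vehicle hemispheres. With the choroid plexus level as a covariate, Slco1a4 had a log2 fold change of -0.27 ± 0.11 (adjusted p = 0.710).

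Hippocampus, drug comparisons. No barrier gene passed the test in the hippocampus, where the spread was wider. All 7 comparisons called none of the 9 by limma, each against 0.0% of 15267 genes. Between 210 and 911 of all genes, and at most 1 of the 9, had an unadjusted limma p under 0.05 in a comparison. Standard errors reached 0.56 for a comparison of 2 groups, against 0.15 in hemisphere. All zeros lay in libraries with few genes. Ocln was at 0 reads in AngII plus hydralazine replicate 5, in vehicle plus hydralazine replicates 3 and 4 and in vehicle replicate 3, where 3 reads, the limit that a count of 0 allows for counting error, would have been 0.0491, 0.513, 0.0451 and 0.0570 FPKM. Abcb1a was at 0 reads in vehicle plus hydralazine replicate 3 and Slco1c1 in vehicle replicate 3.

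Slco1c1 had the largest value for AngII against vehicle. It had 9.01, 9.99 and 11.3 FPKM in AngII hippocampi, against 0.0, 9.06 and 10.7 FPKM in vehicle hippocampi. The groups overlapped, and AngII against vehicle gave 0.82 ± 0.49 on the log2 scale (adjusted p = 1.0). Without the libraries with few genes it was 0.05 ± 0.10, with means of 10.2 ± 0.935 FPKM in AngII hippocampi (n = 5) and 9.83 ± 1.13 FPKM in vehicle hippocampi (n = 4).

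With all libraries, Mfsd2a had the lowest p in the hippocampus. It had 3.13, 8.30 and 11.1 FPKM with both drugs and 7.21, 9.09 and 9.58 FPKM with AngII, against 7.20, 9.70 and 18.9 FPKM with hydralazine alone and 9.10, 10.2 and 13.8 FPKM with vehicle. The 18.9 and the 3.13 FPKM both came from libraries with few genes. The AngII effect averaged over mice with and without hydralazine was -0.42 ± 0.17 (unadjusted p = 0.0197, adjusted p = 0.859), and both drugs against hydralazine alone gave -0.59 ± 0.24 (unadjusted p = 0.0214, adjusted p = 0.649). Leaving out the libraries with few genes, these were -0.13 ± 0.08 and -0.03 ± 0.11. The median of all genes stood at 0.10 and 0.15 in these comparisons, so relative to it the values with all libraries were -0.52 and -0.74. With those libraries left out, AngII against vehicle ran from -0.23 (Mfsd2a, unadjusted p = 0.0452, adjusted p = 0.808) to 0.19 (Ocln) over the 9 genes. Tjp1 was then at -0.20 ± 0.06 for both drugs against AngII (unadjusted p = 0.00624, adjusted p = 0.520, limma). These values still held hippocampal AngII replicate 6, which lay outside the 4 other AngII libraries with many genes. It had Ocln at 4.07 FPKM (others 2.18 to 2.65), Mfsd2a at 7.21 (others 8.06 to 9.31) and Tjp1 at 8.51 (others 6.65 to 7.71). Also without the libraries with few genes, Tjp1 was at -0.21 ± 0.07 for both drugs against vehicle (unadjusted p = 0.00748, adjusted p = 0.707, limma). For both drugs against hydralazine alone it was at -0.20 ± 0.07 (unadjusted p = 0.00794, limma) and was not called. The mean of the AngII group enters neither comparison, and both share the libraries given both drugs.

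Cldn5 varied between the hippocampal libraries of each group. It had 46.3, 58.7 and 65.7 FPKM with both drugs and 32.4, 44.6 and 63.9 FPKM with AngII, against 8.16, 50.6 and 72.8 FPKM with hydralazine alone and 32.9, 53.7 and 68.7 FPKM with vehicle. The 8.16 and 72.8 FPKM were the 2 libraries with few genes of that group. Slc2a1 had group means of 27.0 to 29.0 FPKM, and AngII against vehicle gave -0.09 ± 0.12 with an interval of -0.35 to 0.16. None of the other listed junction, carrier, regulator, leakage or endothelial genes was called for AngII against vehicle in the hippocampus.

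Whether AngII acted differently in the regions was tested directly in a fit of all 48 libraries. The difference of the AngII effects, hippocampus minus hemisphere, called none of the 9 genes against 0.0% of 17643 genes, of which 516 had an unadjusted p under 0.05. At an unadjusted limma p under 0.05 it held 2 of the 9. These were Slco1a4 at 0.46 ± 0.18 and Tjp1 at 0.54 ± 0.25, each with an adjusted p of 1.0. Tjp1 was 0.21 ± 0.19 without the libraries with few genes (adjusted p = 0.761). Slco1a4 was 0.33 ± 0.17 without the libraries with few genes and 0.13 ± 0.13 when the AngII libraries numbered 6 were left out as well.

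Hippocampus against hemisphere. Averaged over treatments, 4 of the 9 genes were lower in hippocampus and none was higher, while 47.2% of the 17643 genes tested were called lower and 20.2% higher. The median of all genes was -0.23, so a lower value at this scale was common and the 4 of 9 lie close to the share of all genes. The called genes were the pump Abcb1a at -0.51 ± 0.14 (adjusted p = 0.00108), the carrier Slco1a4 at -0.29 ± 0.06 (adjusted p = 8.43e-05), the junction gene Tjp1 at -0.32 ± 0.09 (adjusted p = 0.00159) and the glucose carrier Slc2a1 at -0.15 ± 0.06 (adjusted p = 0.0170). Relative to the median of all genes these were -0.28, -0.06, -0.10 and 0.08.

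Abcb1a averaged 3.18 ± 0.933 FPKM in hippocampus and 4.43 ± 0.395 FPKM in hemisphere (SD, n = 24 each). All 6 hippocampal values of each treatment lay below the mean of the matching hemispheres. The difference without the libraries with few genes was -0.39 ± 0.06 (adjusted p = 8.16e-08), and -0.26 relative to the median of all genes. Slco1a4 averaged 5.64 ± 0.975 FPKM in hippocampus and 7.0 ± 0.968 FPKM in hemisphere, and Tjp1 averaged 6.56 ± 1.28 FPKM in hippocampus and 8.27 ± 1.31 FPKM in hemisphere. Leaving those libraries out, Slco1a4 stood at -0.27 ± 0.06 and Tjp1 at -0.19 ± 0.07 (adjusted p = 0.00922). Slc2a1 averaged 27.6 ± 3.85 FPKM in hippocampus and 30.6 ± 3.52 FPKM in hemisphere, and without those libraries its call was lost (-0.09 ± 0.05, adjusted p = 0.113).

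The other 5 genes were not called with all libraries. Cldn5 averaged 51.1 ± 14.3 FPKM in hippocampus and 45.8 ± 8.67 FPKM in hemisphere (0.09 ± 0.13, interval -0.18 to 0.36), Mfsd2a averaged 9.81 ± 3.24 FPKM in hippocampus and 9.26 ± 1.5 FPKM in hemisphere (0.03 ± 0.10), and Abcg2 averaged 2.14 ± 0.839 FPKM in hippocampus and 1.91 ± 0.273 FPKM in hemisphere (0.08 ± 0.10). Relative to the median of all genes these 3 were at 0.32, 0.26 and 0.31. Ocln and Slco1c1 were at -0.41 ± 0.21 and -0.28 ± 0.18 with all libraries. Without the libraries with few genes they were at 0.06 ± 0.08 and -0.06 ± 0.05, so the sign of Ocln rests on them. Library weights called Cldn5 higher (0.20, adjusted p = 0.00396) and Slco1c1 lower (-0.11). Leaving out both the libraries with few genes and the AngII libraries numbered 6 did so too (0.24, adjusted p = 0.00619, and -0.09). With quantile normalization Cldn5 was at -0.14 and not called, Abcg2 was called higher (0.43, adjusted p = 0.000134) and Slco1a4 lost its call (adjusted p = 0.0519).

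**Figure D3:**
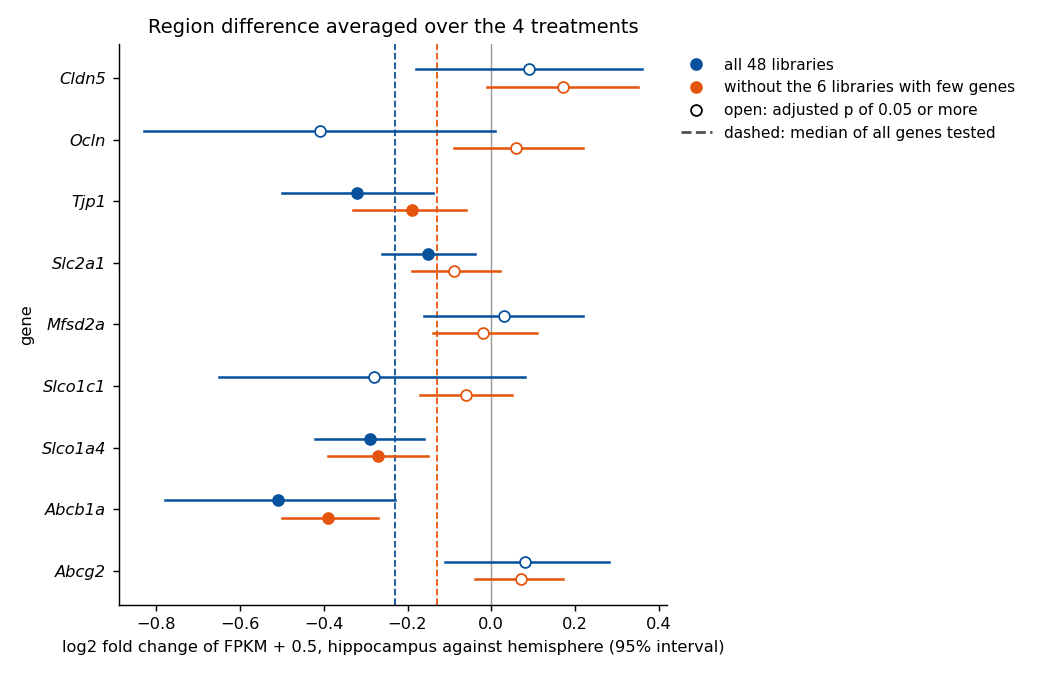
Log2 fold change of FPKM + 0.5 for hippocampus against hemisphere, averaged over the 4 treatments, with 95% intervals (x axis) for the 9 genes (y axis); filled points have an adjusted p under 0.05 and dashed lines are the medians of all genes tested. Abcb1a, Slco1a4 and Tjp1 stay filled without the 6 libraries with few genes, and the medians of all genes move to -0.13 from -0.23.

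The region comparison was also made within each treatment. In AngII plus hydralazine mice 1 of the 9 genes was lower, Slco1a4 at -0.40 ± 0.13 (adjusted p = 0.00899; 28.8% of all genes were lower and 13.6% higher). In AngII mice none was called (24.6% lower, 12.4% higher), and 1 of the 9 had an unadjusted p under 0.05. In vehicle plus hydralazine mice 1 was lower, Abcb1a at -0.75 ± 0.27 (38.4% lower, 12.4% higher). In vehicle mice 3 were lower, Slco1a4 at -0.50 ± 0.13, Tjp1 at -0.61 ± 0.18 and Slco1c1 at -0.94 ± 0.36 (29.5% lower, 12.7% higher). Slco1a4 had 4.18, 4.75 and 6.30 FPKM in vehicle hippocampi, against 6.80, 7.15 and 8.12 FPKM in vehicle hemispheres, and these groups did not overlap. In AngII plus hydralazine mice 2 of the 9 genes had groups that did not overlap, Slco1a4 and Tjp1 (-0.33 ± 0.18, adjusted p = 0.14). How many of all genes had groups without overlap was not counted, so these are descriptions. Without the libraries with few genes, the Tjp1 and Slco1c1 calls in vehicle mice were lost (-0.23 and -0.16), and Abcb1a was called lower in all 4 treatments (-0.52 in AngII plus hydralazine, -0.37 in AngII, -0.29 in vehicle plus hydralazine and -0.38 in vehicle mice). Some calls changed with a single library. Without hippocampal vehicle plus hydralazine replicate 3 the Abcb1a value in those mice was -0.24 (adjusted p = 0.0858), and without hippocampal vehicle replicate 3 the Slco1c1 value was -0.23 (adjusted p = 0.121). The Slco1c1 call in vehicle mice was also lost without hemisphere vehicle replicate 5 or 6 (adjusted p = 0.0555 and 0.0516). Without hippocampal vehicle plus hydralazine replicate 1, Ocln was called lower in those mice and in the average over treatments (-1.04 and -0.46). Ocln was also called lower in that average without the AngII libraries numbered 6 (-0.49, adjusted p = 0.0395). Without hippocampal vehicle plus hydralazine replicate 3, Cldn5 was called higher in the average over treatments (0.20, adjusted p = 0.0268).

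Other barrier genes were counted beside the 47.2% of all genes called lower and the 20.2% called higher. Averaged over treatments, 13 of 17 tested junction genes were lower and 0 higher, led by Cgn (cingulin) at -1.75 ± 0.09 and Lsr (a tricellular junction protein) at -1.29 ± 0.16. Of 21 carriers and pumps 12 were lower and 1 higher, of 23 regulators 14 were lower and 0 higher, and of 12 leakage genes 9 were lower and 0 higher, with the permeability factor Vegfa at -1.73 ± 0.08. Of 19 endothelial markers 10 were lower and 5 higher, with Tie1, a vascular receptor, at -0.95 ± 0.16 and Ramp2, the partner of the adrenomedullin receptor, at 1.44 ± 0.09. Medians were -0.71 for junctions, -0.31 for carriers and pumps, -0.48 for regulators, -0.51 for leakage genes and -0.33 for endothelial markers, beside -0.23 for all genes. With all libraries, the shares of carriers and pumps and of endothelial markers called lower lay near that of all genes. Without the libraries with few genes 49.8% of all genes were lower and 31.9% higher. The counts were then 13 lower (81.2%) and 2 higher of 16 junction genes, and 13 (61.9%) and 3 of 21 carriers and pumps. They were 16 (69.6%) and 1 of 23 regulators, 10 (83.3%) and 1 of 12 leakage genes, and 12 (63.2%) and 7 of 19 endothelial markers. The lists were chosen with earlier results of these data known, so these shares are descriptions.

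Markers of the choroid plexus moved with the region. Of 11 tested, 9 were lower in hippocampus and 0 higher, with a median of -1.48. Their summed level was 2.69 to 2020 FPKM in hippocampus (median 18.8) and 294 to 849 FPKM in hemisphere (median 546), and Folr1 and Ttr were at 0 in at least 1 hippocampal library. The mean log2(FPKM + 0.5) of the listed markers nearly separated the regions. It was 0.86 to 1.94 in hemisphere and at most 0.52 in the hippocampal groups other than AngII. In the hippocampal AngII group it reached 2.28, and the 2020 FPKM lay in that group (at most 135 FPKM in the other hippocampal groups). A covariate this close to the region cannot tell choroid plexus content from region. With the choroid plexus level as a covariate none of the 9 barrier genes was called, with larger standard errors. Slco1a4 was at -0.23 ± 0.12, Abcb1a at -0.27 ± 0.26 and Tjp1 at -0.15 ± 0.17, and Slc2a1 changed sign to 0.12 ± 0.10 (adjusted p = 0.311). The summed endothelial level was 379 to 664 FPKM in hippocampus (median 597) and 403 to 676 FPKM in hemisphere (median 466). The mean log2(FPKM + 0.5) of the same markers, which is the covariate, was lower in hippocampus, at 1.85 to 2.67 (median 2.5), against 2.44 to 2.75 (median 2.60) in hemisphere. Without the libraries with few genes it was 2.30 to 2.67 in hippocampus (median 2.53), so its low end lay in those libraries. The fit with this covariate included them and was not run without them. With the endothelial level as a covariate, Cldn5 was called higher in hippocampus (0.41 ± 0.11, adjusted p = 0.00115), Slco1a4 and Tjp1 stayed lower (-0.31 ± 0.07 and -0.24 ± 0.10), and Abcb1a and Slc2a1 were not called (-0.25 ± 0.13 and -0.07 ± 0.06). Markers of meningeal fibroblasts were lower in hippocampus in 8 of 10, with a median of -1.19, and their part in the result was not tested.

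AngII replicate 6. This hemisphere library held the highest Cldn5 value of all 24 hemispheres (73.0 FPKM) and the lowest Ocln (0.930), Tjp1 (3.43), Abcg2 (1.20), Slco1a4 (3.61) and Slco1c1 (5.93). Only Mfsd2a, Slc2a1 and Abcb1a lay within the range of the other 5 AngII hemispheres. In hippocampus the library with the same number went the other way, with the highest Ocln (4.07 FPKM), Tjp1 (8.51) and Abcb1a (4.47) of all hippocampi, and with Cldn5 (32.4) and Mfsd2a (7.21) below the other 4 AngII libraries with many genes. Both libraries had the lowest mitochondrial share of reads in their region, 5.74% in hippocampus (others 6.40 to 10.53%) and 2.77% in hemisphere (others 5.70 to 7.22%).

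The direction went with gene length. In hemisphere the log2 difference from the other AngII libraries was 0.79 for Cldn5, whose gene is 1416 bases long in the deposited table, and -1.21 for Tjp1, at 7811 bases. In hippocampus the same genes were at -0.66 and 0.26. Over all genes tested, the median difference in hemisphere was 0.21 for genes of 1000 to 2000 bases and -0.31 for genes of 6000 bases or more, and in hippocampus it was -0.48 and 0.30. Several barrier genes lay farther out than the median of their length range. In hemisphere this held, among others, for Cldn5, for Tjp1, for Slco1c1 (-0.78 beside -0.05) and for Ocln, at 4222 bases (-0.94 beside -0.05). It also held there for Slco1a4 (-0.76 beside -0.31) and Abcg2 (-0.56 beside -0.31), but not for Slc2a1 (0.11 beside 0.12). In hippocampus it held, among others, for Ocln (0.70 beside 0.20), Abcb1a (0.44 beside 0.20), Mfsd2a (-0.28 beside -0.03) and Cldn5 (-0.66 beside -0.48). It did not hold there for Tjp1 (0.26 beside 0.30) or Slco1c1 (0.06 beside 0.20). The part of the mitochondrial share or of gene length in these values was not tested.

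**Figure D4:**
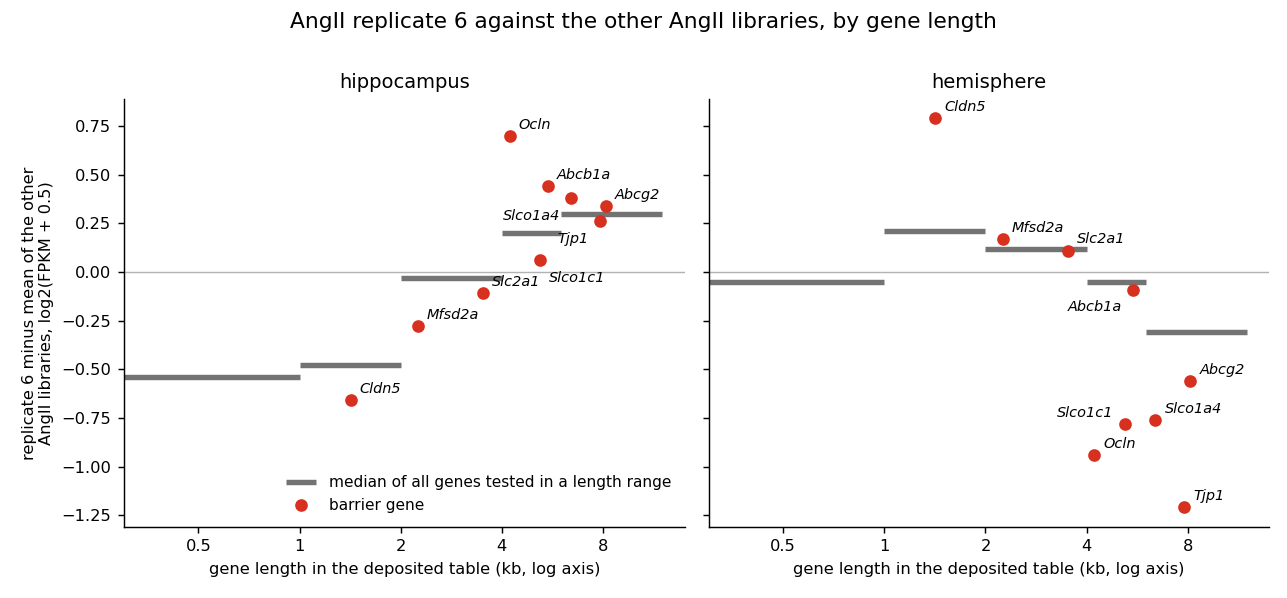
Log2(FPKM + 0.5) of AngII replicate 6 minus the mean of the other AngII libraries (y axis; in hippocampus without the library with few genes) against gene length in kb on a log axis, hippocampus on the left and hemisphere on the right. Red points are the 9 barrier genes and grey bars the medians of all genes tested in a length range; differences run upward with length in hippocampus and downward from 1 kb on in hemisphere.

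The 9 genes did not vary as 1 block between libraries of a group. After the group means were subtracted, the 36 pairs had Pearson r from -0.57 to 0.84 in hippocampus (n = 24) and from -0.73 to 0.75 without the libraries with few genes (n = 18). In hemisphere they ran from -0.79 to 0.86 with a median of 0.18 (n = 24), and 11 pairs were above 0.5. Without AngII replicate 6 only 2 pairs were above 0.5 (n = 23): Mfsd2a with Slc2a1 at 0.70 and Tjp1 with Slco1c1 at 0.51. Cldn5 and Tjp1, partners at the same junctions, ran against each other in hemisphere at -0.79, and at -0.62 without replicate 6, while their gene lengths differ as given above. In hippocampus the same pair was at -0.00, and at -0.08 without the libraries with few genes. All values of a library share its depth and RNA, so these r are descriptions.

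**Figure D5:**
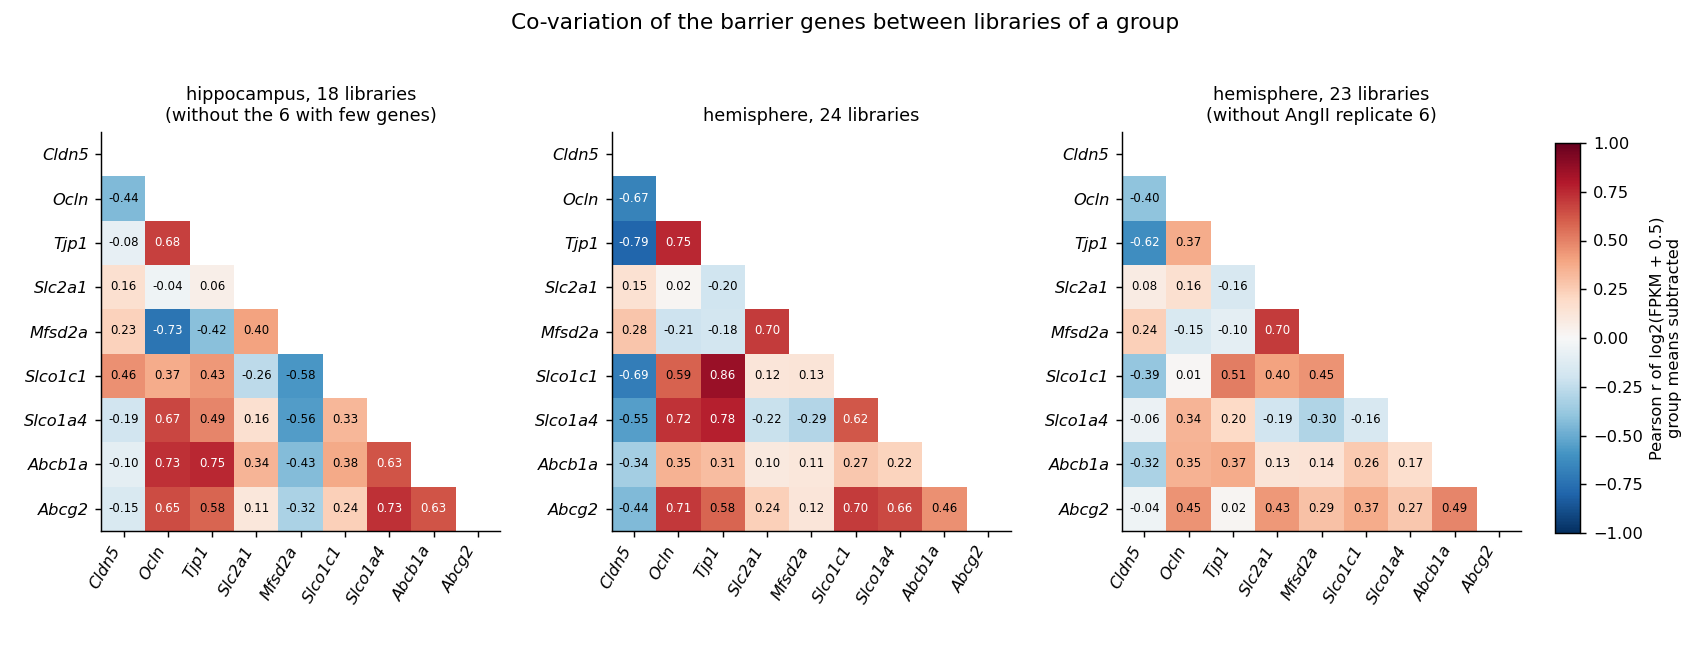
Pearson r between the barrier genes over libraries of a region, after the group means were subtracted, from -1 (blue) to 1 (red): hippocampus without the 6 libraries with few genes (n = 18), hemisphere (n = 24), and hemisphere without AngII replicate 6 (n = 23). Most of the hemisphere's strong values fade without replicate 6, while Mfsd2a with Slc2a1 stays at 0.70.

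With the mean of the 19 endothelial markers, Cldn5, Slc2a1 and Mfsd2a had r of 0.62, 0.62 and 0.56 over the 24 hemispheres, and the other 6 genes were at or below 0.16, down to -0.43 for Tjp1. Without AngII replicate 6 Abcg2 stood at 0.49 and the first 3 genes at 0.59, 0.61 and 0.55. In hippocampus without the libraries with few genes the order differed, with Cldn5 at 0.68, Slco1c1 at 0.51, Abcb1a at 0.50, Slc2a1 at 0.47, Slco1a4 at 0.38, Abcg2 at 0.33, Tjp1 at 0.28, Ocln at 0.17 and Mfsd2a at -0.15. The genes whose pattern in hemisphere was most like that of a barrier gene were found by the same measure over 24 libraries. They were Rufy3, Arid4a and Prkar1a for Tjp1 (0.97 each), Serinc3 for Slco1c1 (0.94), Eri3, Rtn2 and Gga1 for Cldn5 (0.92 each) and Mier3 for Slco1a4 (0.91). Without AngII replicate 6 the values were 0.87 for Rufy3, 0.81 for Serinc3, 0.86 for Eri3 and 0.69 for Mier3. In hippocampus without the libraries with few genes they were 0.36, 0.30, 0.49 and 0.21. The closest genes for the others were Sipa1 for Mfsd2a (0.83), Klhl21 for Slc2a1 (0.78), Mylip for Abcb1a (0.76), Naf1 for Abcg2 (0.84) and Zmpste24 for Ocln (0.85).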

How the data were processed

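Per the labels' protocols, RNA was purified from brain tissue with a commercial kit and total RNA went into sequencing libraries. The values used are the authors' deposited FPKM, 1 table of 54532 genes by 48 libraries with a length for each gene. GRCm38, mm10 and DESeq 1.10.1 are named, per the submitters' processing notes. Not given in the sources used here are the aligner, the counter and whether strand was used. FPKM times gene length gave whole reads for 100% of values (tolerance 0.1), which were used for depth only. Every one of 120 pairs of libraries from the same group differed by more than sampling noise, with a chi-square per gene of 3.08 or more.

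A gene entered a fit if 6 or more of its libraries reached 0.5 FPKM. Tests were two-sided, on log2(FPKM + 0.5), which understates changes of low genes. They used limma (version 3.58.1, R version 4.3.3) with 1 mean per group and an eBayes prior that was robust and followed the trend, with Benjamini-Hochberg adjustment over all genes tested and calls at an adjusted p under 0.05. Fits within a region used 24 libraries and fits across regions 48. The fit was tested on simulated data with seeded changes; none was called with the wrong sign, and fewer were recovered in hippocampus than in hemisphere. Alternatives were other pseudocounts, filters, scalings, library weights, marker covariates, a replicate block and libraries left out. Python 3.11.15, pandas 2.3.3 and matplotlib 3.10.9 made tables and figures.

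The 9 genes and the lists were chosen with earlier results of these data known. All 9 are named in every comparison; of the junction, carrier, regulator, leakage and endothelial lists the text may name called genes and the 2 with the largest change, and, as the most similar genes, the 3 protein-coding genes with the highest Pearson r per barrier gene. The hippocampal markers C1ql2 and Spink8 were chosen after the data were seen. Replicates sharing a number mostly did not deviate together, and whether they came from the same mice was not tested. RefSeq promoter windows were matched by symbol for all 9 genes; those of Tjp1 and Abcb1a start 156.5 and 93.0 kb from the deposited gene start and are not printed.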

Additional observations from a re-analysis of the deposited data

Results flagged for a closer look

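In 16 of the 72 groups of 6 libraries (9 genes in 8 groups), the highest or lowest library lay far from the other 5 on the log2 scale by Dixon's test, which chance alone would give in about 1 in 20 groups. Of these, 8 lay in hippocampal libraries with few genes. Vehicle plus hydralazine replicate 3 had Cldn5 at 8.16 FPKM (others 41.2 to 72.8), Abcb1a at 0.0 (others 3.07 to 4.15) and Abcg2 at 4.6 (others 1.89 to 2.34). Vehicle replicate 3 had Ocln at 0.0 (others 2.07 to 2.38) and Slco1c1 at 0.0 (others 7.65 to 10.7). AngII plus hydralazine replicate 5 had Ocln at 0.0 (others 1.71 to 2.79) and Mfsd2a at 3.13 (others 7.83 to 11.1). AngII replicate 3 had Abcg2 at 0.815 (others 1.79 to 2.5).

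Another 4 lay in hemisphere AngII replicate 6, with Cldn5 at 73.0 FPKM (others 39.1 to 45.7), Ocln at 0.930 (others 1.78 to 2.44), Tjp1 at 3.43 (others 7.56 to 9.56) and Slco1c1 at 5.93 (others 9.37 to 12.1). The remaining 4 were hemisphere libraries that stood apart in 1 gene each. AngII plus hydralazine replicate 5 had Tjp1 at 9.10 (others 7.69 to 7.90), and replicate 4 of that group had Mfsd2a at 10.7 (others 7.99 to 8.47). Vehicle plus hydralazine replicate 1 had Cldn5 at 60.2 (others 36.3 to 43.8). Vehicle replicate 5 had Slco1a4 at 8.12 (others 6.80 to 7.20).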

How the results depend on the processing

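No barrier gene was called in any drug comparison in 4158 alternative values (lowest adjusted p = 0.243, Tjp1, both drugs against vehicle in hemisphere, library weights), of which 300 changed sign without a call. For hippocampus against hemisphere, the choroid plexus covariate left 0 genes called in vehicle, vehicle plus hydralazine and AngII plus hydralazine mice and in the average over treatments, where Slc2a1 reversed to 0.123. This covariate nearly followed the region, as given above, and the standard errors grew under it. Slco1a4 was at -0.43 ± 0.17 in vehicle and -0.33 ± 0.17 in AngII plus hydralazine mice, against -0.50 ± 0.13 and -0.40 ± 0.13 without the covariate. Library weights called 3 genes in each of AngII, vehicle plus hydralazine and AngII plus hydralazine mice. Without the libraries with few genes the calls were 1 in AngII, 2 in vehicle plus hydralazine and 3 in AngII plus hydralazine mice; without the AngII libraries numbered 6 as well, a choice made after seeing the data, they were 3 in each. Quantile normalization called 1 gene in AngII mice and 2 in vehicle plus hydralazine mice, 1 of them higher. A fit of only the groups compared called 1 in AngII, 0 in vehicle plus hydralazine and 4 in AngII plus hydralazine mice, 1 of them higher. In AngII plus hydralazine mice a pseudocount of 1 called 2, and the endothelial covariate 2, 1 of them higher. Leaving out each replicate gave 0 to 2 calls in vehicle plus hydralazine mice, 2 to 3 in vehicle mice, 1 in AngII plus hydralazine mice, 0 in AngII mice and 4 to 5 in the average. The share of all genes called is not set beside these counts for each setting. Across alternatives, calls over all genes ran from 5395 to 12764 in AngII mice (6526 in the main fit). They ran from 5222 to 12773 in vehicle plus hydralazine mice (8949) and from 5813 to 12827 in AngII plus hydralazine mice (7473). A higher count of barrier genes is therefore not a result about them.

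The replicate block changed no count of barrier genes called and left 4 called in the average over treatments. Libraries with the same number correlated above 0.1 in 10 of 36 pairs in hippocampus, 3 of 36 in hemisphere and 0 of 24 between regions. A library's closest match in another group had the same number in 11 of 36 cases in hippocampus, 7 of 36 in hemisphere and 5 of 24 between regions. Such correlations cannot show whether libraries with the same number came from the same mice. Over all genes, calls for AngII against vehicle in hemisphere ran from 0 to 38 across alternatives, and for the average AngII effect from 2 to 166. For AngII against vehicle in hippocampus, the highest standard error among the 9 genes was 0.21 without the libraries with few genes and 0.56 with them, so differences within those intervals were not detectable.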
